A study of Mus musculus with 6 samples.

Results

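The angiopoietin and Tie receptor axis was examined in glomeruli, the filtering units of the kidney, with 6 genes named for it: Angpt1, Angpt2, Tek, Tie1, Angptl2 and Angptl4. Every probe set of the array whose annotation symbol is one of these names was taken, which gave 8 probe sets for 5 genes out of 45037 probe sets that are not controls; Angptl2 was not analysed here. RNA of 1 mouse was hybridised to each Affymetrix array, with 3 arrays per group. The Vhl-deleted group carried Pod-Cre, a Cre recombinase under the podocin promoter that acts in podocytes, and a floxed Vhl locus, and the control group were littermates labelled wildtype. The parents of these litters were homozygous for the floxed locus, and the labels do not say whether the controls kept floxed alleles. All mice were females of 6 weeks. The Vhl-deleted mice had been chosen for urinary albumin, measured at 4 weeks, no higher than the average of the controls. Glomeruli were isolated with magnetic beads, so each array holds RNA of podocytes, endothelium and mesangium together with any tubule that was carried along, and only the podocytes were meant to lose Vhl.

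The angiopoietins are secreted ligands of Tie2, the receptor tyrosine kinase encoded by Tek on endothelial cells. Angiopoietin-1, made in the glomerulus by podocytes and mesangial cells, activates Tie2 and keeps capillaries quiescent, whereas angiopoietin-2, which endothelial cells store and release, can block or weakly activate the same receptor. Tie1 is a related receptor that pairs with Tie2, and the phosphatase encoded by Ptprb removes phosphate from Tie2. The angiopoietin-like proteins share the fold of the angiopoietins but do not bind Tie2; Angptl4 inhibits lipoprotein lipase and is known as a target of the fatty acid receptors of the PPAR family and of the hypoxia-inducible factors (HIF), which the Vhl protein marks for degradation.

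None of the 5 measured genes passed the test between the groups (limma; 1 of them, Angptl4, had an unadjusted p under 0.05), where 9 of 11159 genes tested (0.0807%) did. In a fit over all probe sets, 0.0355% passed and none of the 8 probe sets of these genes was among them. Angptl4 was the member that stood apart: its mean signal was 1.94-fold higher in control than in Vhl-deleted glomeruli, and the arrays of the groups did not overlap. Over all genes tested, 4.92% had an unadjusted p under 0.05 and 10.7% had groups that did not overlap. Angpt1 and Angpt2 differed by less than 1 standard deviation of the control arrays, and both receptors, Tek and Tie1, had nearly equal means. Values are MAS5 signals on a linear scale, and changes are differences of log2(signal + 28), Vhl-deleted minus control, tested with limma and adjusted by Benjamini and Hochberg over all genes at a threshold of 0.05. The pseudocount of 28 makes the change of a dim gene smaller than the ratio of its signals, and a signal depends on the probes that measure it, so signals are compared between arrays and not between genes. With 3 arrays per group, precision is limited by the number of arrays.

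**Figure D1:**
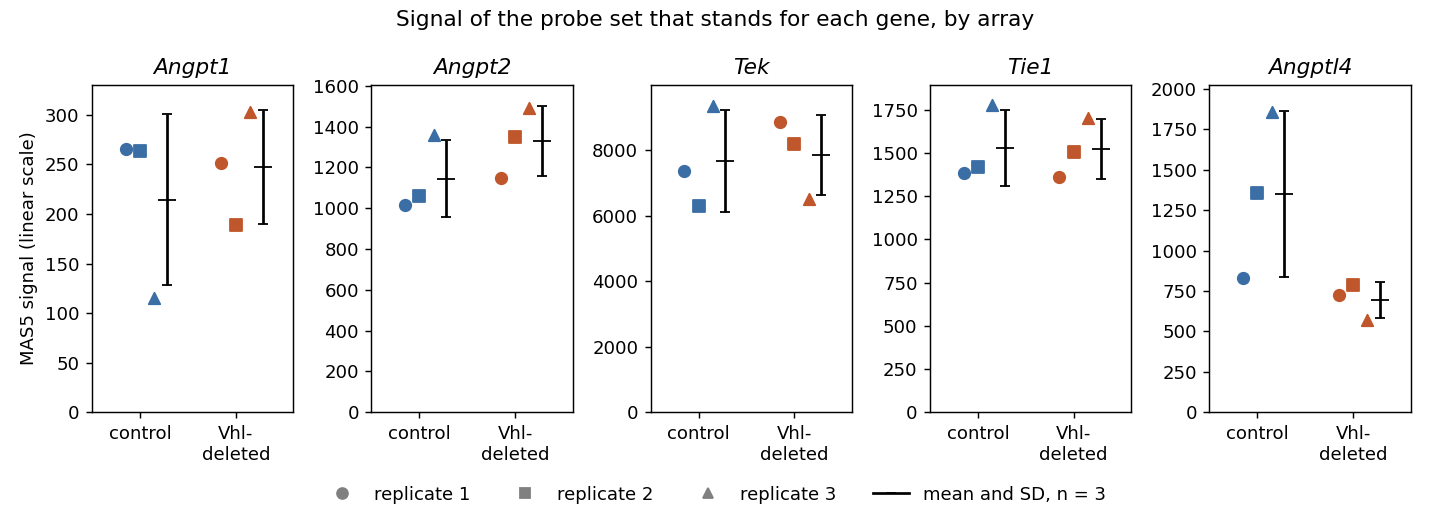
MAS5 signal (linear axis from 0) of the probe set that stands for each gene in the 3 control and the 3 Vhl-deleted arrays; symbols mark the replicate number and bars the mean and SD (n = 3). The groups overlap for Angpt1, Angpt2, Tek and Tie1, while the 3 Vhl-deleted arrays of Angptl4 (568 to 788) all lie below the 3 control arrays (830.1 to 1860.2).

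The labels were checked on 2 genes. Egln3, a HIF hydroxylase that is itself a HIF target, had signals from 144 to 171 in the controls and from 3678 to 5098 in Vhl-deleted arrays. Vhl had signals from 665 to 809 in the controls and from 606 to 619 in Vhl-deleted arrays. Its log2 change of -0.23 did not pass (limma adjusted p = 0.944), and 10.7% of all genes tested had groups that did not overlap. Only the podocytes were meant to lose Vhl, and the cause of the small size of its change was not tested. The median signal per array lay between 94.6 and 107.5, and the 3′ to 5′ ratio of the Gapdh control probe sets between 0.773 and 0.829. Control replicate 3 stood apart in its tissue markers: the mean log2 level of 16 tubule genes was 10.72 there and between 11.95 and 12.82 in the other 5 arrays, and that of 14 podocyte genes was 12.82 there and between 12.08 and 12.42 in the others.

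Angpt1, the activating ligand, had signals of 265, 263 and 115 in control replicates 1, 2 and 3 and of 251, 188 and 303 in Vhl-deleted replicates 1, 2 and 3 (probe set 1439066_at). Control replicate 3 was the lowest of all 6 arrays, and the groups overlapped. The means were 215 ± 86.0 (SD, n = 3) for the controls and 248 ± 57.3 (SD, n = 3) in Vhl-deleted glomeruli, a log2 change of 0.24 (95% interval -0.51 to 0.99; limma adjusted p = 0.944). The interval covers both a decrease and a rise, so these arrays do not fix a direction for Angpt1. The low array was also the one with the fewest tubule transcripts and the most podocyte transcripts. Without control replicate 3 the change turned to -0.11, and with the tubule marker level of each array as a covariate it was -0.069. In arrays of whole glomeruli, fewer cells of a type and less RNA per cell cannot be told apart. The other Angpt1 probe set, 1421441_at, was dim, with signals from 34.2 to 101 in the controls and from 20.2 to 101 in Vhl-deleted arrays. It lay below the filter on low values (a signal of about 96.4 on average), and its change in a fit over all probe sets was -0.16 (95% interval -1.14 to 0.83; limma adjusted p = 0.988).

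Angpt2, the ligand of activated endothelium, had signals of 1014, 1061 and 1361 in the controls and of 1146, 1349 and 1489 in Vhl-deleted replicates 1, 2 and 3 (1448831_at). The 2 lowest arrays were control and the highest was Vhl-deleted, and the groups overlapped because control replicate 3 exceeded Vhl-deleted replicates 1 and 2. The means were 1145 ± 188 (SD, n = 3) and 1328 ± 172 (SD, n = 3), a log2 change of 0.21 (95% interval -0.15 to 0.58; limma adjusted p = 0.944). The change was positive in all 20 alternative settings, between 0.13 and 0.34, and passed in none of them. Some of these settings, such as another filter or variance model, could not alter the change itself. Without control replicate 3 it was 0.34. The other probe set of Angpt2 (1459636_at) was near the pseudocount, with signals from 5.84 to 52.5 in the controls and from 5.83 to 34.1 in Vhl-deleted arrays, and had no measurable direction. The log2 difference Angpt2 minus Angpt1 within an array, whose level also holds the probes' own brightness, was 1.83, 1.90 and 3.28 in the controls and 2.07, 2.67 and 2.20 in Vhl-deleted replicates 1, 2 and 3. Its group means differed by -0.02, a value that rests on control replicate 3. Without that array the difference was 0.45, with only 2 controls left and no test made.

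The genes of the receptors are expressed in endothelium, where transcription factors of the ETS family drive many genes. Their promoters are shown because the receptors belong to the endothelial side of the axis. The RNA of a receptor is not a measure of its signalling, which was not measured here. The 250 bases before the gene start are from RefSeq (GRCm38.p6), 5′ to 3′ on the gene's strand, chr4:94739039-94739288 on the plus strand for Tek and chr4:118489850-118490099 on the minus strand for Tie1. Capitals mark the letters of an ETS core, for which the letters CCGGAA were searched on both strands, along with the letters AAGGAA and the variant CAGGAA. These share their last letters, and no matches overlapped here.
Tek: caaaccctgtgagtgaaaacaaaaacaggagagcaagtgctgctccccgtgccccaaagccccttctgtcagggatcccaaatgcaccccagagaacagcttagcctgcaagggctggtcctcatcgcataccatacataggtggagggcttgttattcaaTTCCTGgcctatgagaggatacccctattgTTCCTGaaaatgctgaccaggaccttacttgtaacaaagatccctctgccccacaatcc
Tie1: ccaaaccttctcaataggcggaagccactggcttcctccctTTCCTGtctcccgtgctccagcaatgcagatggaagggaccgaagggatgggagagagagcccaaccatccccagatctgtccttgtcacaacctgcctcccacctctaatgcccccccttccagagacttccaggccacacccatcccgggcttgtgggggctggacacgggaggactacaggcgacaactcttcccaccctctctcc
Tek held 2 matches, which begin 89 and 59 bases before the gene start, and Tie1 held 1, which begins 209 bases before it; 49.6% of 32851 promoter windows of this length held at least 1. The core of the hypoxia response element (the letters ACGTG on both strands, and likewise GCGTG) was in neither window and in 38.6% of all windows. A match is a description of letters and not a binding site. The promoter table matched 3 of the 6 names (Tek, Tie1 and Angptl2), and Angpt1, Angpt2 and Angptl4 were not matched.

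Tek, which encodes Tie2, was bright, with signals of 7375, 6299 and 9357 in the controls and of 8859.6, 8202 and 6513 in Vhl-deleted replicates 1, 2 and 3 (1418788_at). The highest and the lowest of the 6 arrays were both control, so the Vhl-deleted arrays lay wholly within the control range. The means were 7677 ± 1551 (SD, n = 3) and 7858 ± 1210 (SD, n = 3), a log2 change of 0.041 (95% interval -0.38 to 0.46; limma adjusted p = 0.976). This value had no stable sign: it was -0.013 with quantile normalization, -0.024 with median scaling, -0.092 when control replicate 2 was left out and -0.051 without Vhl-deleted replicate 1. Tie1 had signals of 1383, 1419 and 1779 in the controls and of 1362, 1504 and 1702 in Vhl-deleted replicates 1, 2 and 3 (1416238_at). Its means were 1527 ± 219 (SD, n = 3) and 1523 ± 171 (SD, n = 3), a log2 change of -0.00064 (95% interval -0.33 to 0.33; limma adjusted p = 0.9999). Tie1 was also highest in control replicate 3, and the groups overlapped. Its sign was not stable either, with 0.019 under quantile normalization and 0.11 without control replicate 3. These values do not show that the receptors were equal in the groups, but their intervals were narrower than that of Angpt1.

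The receptors were set beside other endothelial genes of the same arrays. The mean log2 level of 21 endothelial markers was 11.80, 11.81 and 12.03 in the controls and 11.95, 11.95 and 11.77 in Vhl-deleted replicates 1, 2 and 3. Tek was likewise highest in control replicate 3, and it was lowest in control replicate 2 and Vhl-deleted replicate 3. Relative to the marker mean, Tek was at 1.01 ± 0.18 (SD, n = 3) for the controls and 1.04 ± 0.13 (SD, n = 3) in Vhl-deleted arrays on the log2 scale. Without control replicate 3 the difference between these means was 0.11 in place of 0.030. Tek relative to Ptprb, the gene of the Tie2 phosphatase and a ratio picked after its values were seen, was at -0.31, -0.49 and -0.42 in the controls and at -0.23, -0.29 and -0.26 in Vhl-deleted replicates 1, 2 and 3. The groups did not overlap in this ratio. Groups also did not overlap for 10.7% of all single genes tested, but no such share was computed for ratios. The group means of the ratio differed by 0.15 (0.14 without control replicate 3), with no test made. Tie1 relative to the same endothelial mean was at -1.29 ± 0.065 (SD, n = 3) and -1.30 ± 0.26 (SD, n = 3). Angpt2 relative to the marker mean was at -1.77, -1.72 and -1.59 in the controls and at -1.75, -1.52 and -1.20 in Vhl-deleted replicates 1, 2 and 3. Vhl-deleted replicate 3 thus had the highest Angpt2 and Tie1 relative to the marker mean. Its marker mean was the lowest of all arrays, which by itself raises these differences. Before the subtraction Tie1 was highest in control replicate 3, and Angpt2 in Vhl-deleted replicate 3. The mean log2 level of 10 mesangial and smooth muscle markers ran from 11.14 in control replicate 1 to 11.64 in Vhl-deleted replicate 3. Angpt2 was likewise lowest and highest in these arrays, and it was not set relative to these markers.

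**Figure D2:**
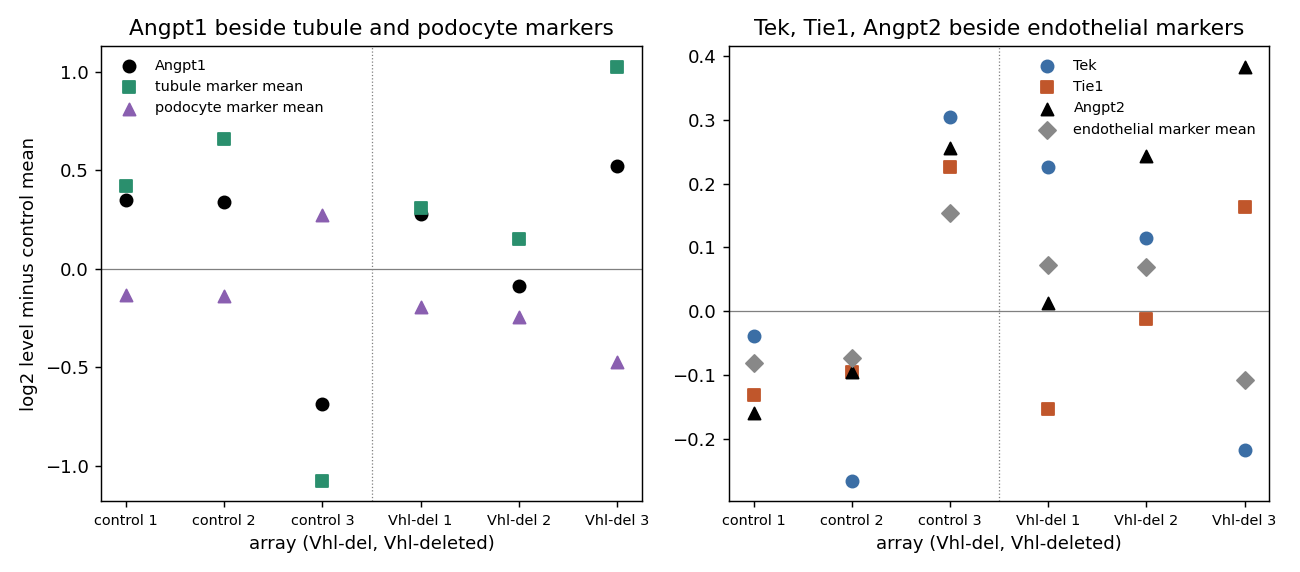
Log2 level of each gene or marker list in each array, minus its mean over the 3 control arrays; left, Angpt1 with the means of the tubule and podocyte markers; right, Tek, Tie1 and Angpt2 with the mean of the endothelial markers. Angpt1 and the tubule markers are both lowest in control replicate 3 and highest in Vhl-deleted replicate 3, and in the right panel the groups overlap for every gene.

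Angptl4, the lipoprotein lipase inhibitor, had lower signals in the Vhl-deleted arrays but did not pass the test. Its signals were 830.1, 1355 and 1860.2 in the controls and 724, 788 and 568 in Vhl-deleted replicates 1, 2 and 3 (1417130_s_at, a probe set type whose probes can match more than 1 transcript). All 3 Vhl-deleted arrays lay below all 3 control arrays, although Vhl-deleted replicate 2 and control replicate 1 were close. The means were 1349 ± 515 (SD, n = 3) and 693 ± 114 (SD, n = 3), a log2 change of -0.87 (SE 0.28; 95% interval -1.54 to -0.20). The unadjusted p was 0.0180 and the limma adjusted p 0.851, so Angptl4 did not pass. Among all genes tested, 549 (4.92%) had an unadjusted p under the threshold of 0.05 and 1191 (10.7%) had groups that did not overlap, against 1 of the 5 members in each case. Among decreases the change was one of the larger ones, since 25 genes (0.224%), itself included, were at -0.87 or lower. Rises of the same size were not counted in this share.

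The control arrays of Angptl4 spanned more than 2-fold, and control replicate 3, the array with the highest podocyte and lowest tubule markers, was the highest. Without it the change was -0.61 (limma adjusted p = 0.947), with array weights it was -0.55, and with the tubule marker level as a covariate it was -0.65 (limma adjusted p = 0.472). Relative to the podocyte marker mean of the same array, Angptl4 was at -2.67, -1.98 and -1.94 in the controls and at -2.80, -2.63 and -2.86 in Vhl-deleted replicates 1, 2 and 3, so control replicate 1 then lay slightly below Vhl-deleted replicate 2. The change was negative in all 20 alternative settings and passed in none, with limma adjusted p values from 0.0951 to 0.998. Some of these settings, such as another filter or variance model, could alter the p value but not the change itself. The other Angptl4 probe set, 1453410_at, was at the level of the pseudocount, with signals from 9.13 to 56.0 in the controls and from 10.9 to 37.7 in Vhl-deleted arrays, and gives no second measurement.

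**Figure D3:**
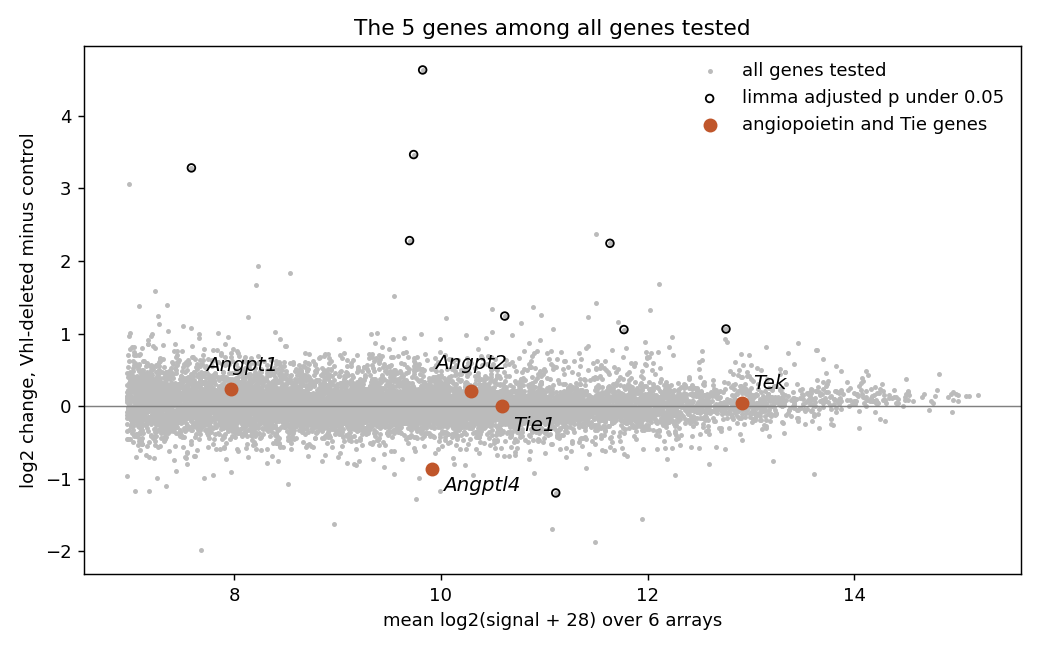
Log2 change (Vhl-deleted minus control) of each of the 11159 genes tested against its mean log2(signal + 28) over the 6 arrays; circles mark the 9 genes past the threshold and filled points the 5 genes of the axis. Angpt1, Angpt2, Tek and Tie1 lie inside the cloud of other genes, and Angptl4 (-0.87) lies at its lower edge without passing.

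The genes that act with the Tie receptors ran from the phosphatase and the vascular junction proteins to the kinases and adaptors below Tie2. Of these 25 genes, 22 were tested and 0 passed (limma). An unadjusted limma p under 0.05 was found for 1 of the 22, Grb7, beside 4.92% of all genes tested. There were 6 positive and 16 negative changes, with a median of -0.02 beside 0.0043 for all genes tested. Without control replicate 3 there were 13 positive changes and the median was 0.02. The lowest p belonged to Grb7, an adaptor that binds activated Tie2, with 317 ± 74.2 (SD, n = 3) for the controls and 450 ± 63.5 (SD, n = 3) after Vhl deletion, with a change of 0.48 (limma adjusted p = 0.944) that was 0.29 without control replicate 3. Next came Pik3r1, the regulatory subunit of the PI3 kinase that Tie2 recruits, at 0.18, and Svep1, an extracellular matrix protein that binds Tie1, at -0.33, each with a limma adjusted p of 0.944. Pik3r1 was at 0.11 without control replicate 2 and 0.12 with median scaling, and its other 3 probe sets were at 0.0088, 0.056 and 0.11. With single arrays left out Svep1 ran from -0.51 (without Vhl-deleted replicate 1) to -0.18 (without Vhl-deleted replicate 2), and it was -0.50 without control replicate 2. Ptprb and Foxo1, which encodes the transcription factor that Tie2 signalling restrains and that drives Angpt2, were picked after their values were seen. Ptprb had signals of 9148, 8834 and 12534 in the controls and of 10360.3, 10062 and 7782 in Vhl-deleted replicates 1, 2 and 3, a change of -0.11 (95% interval -0.52 to 0.31) that turned to 0.053 without control replicate 3 and 0.024 without Vhl-deleted replicate 3. Foxo1 had means of 2214 ± 40.3 (SD, n = 3) and 2168 ± 166 (SD, n = 3), a change of -0.03 (95% interval -0.27 to 0.20), and 0.025 without Vhl-deleted replicate 2.

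The genes around Angptl4 were those of lipoprotein lipase, its anchors and chaperones, lipid uptake and the PPAR receptors with their known targets. Of 21 genes, 16 were tested and 0 passed (limma), with 7 positive and 9 negative changes and a median of -0.03. An unadjusted limma p under 0.05 was found for 1 of the 16, Cd36, beside 4.92% of all genes tested. Cd36, a fatty acid transporter, had a change of -0.59 (95% interval -1.17 to -0.0034; limma adjusted p = 0.944), and -0.28 with array weights. Pdk4, a kinase that blocks glucose oxidation and a PPAR target, had signals of 295, 397 and 428 in the controls and of 289, 184 and 291 in Vhl-deleted replicates 1, 2 and 3, a change of -0.51 (limma adjusted p = 0.944). Its groups did not overlap, by a small margin, and the change was -0.32 without Vhl-deleted replicate 2. Groups did not overlap for 2 of the 16 genes of this list and for 10.7% of all genes tested. The other of the 2 was Lrp1, picked after its values were seen, with a change of 0.21. Lipe, the hormone-sensitive lipase, was at -0.45 (limma adjusted p = 0.944). Lpl, the enzyme that Angptl4 inhibits, was picked after its values were seen: its signals were 7015, 11841 and 22626 in the controls and 5398, 5993 and 11996 in Vhl-deleted replicates 1, 2 and 3. Replicate 3 was the highest of each group, the groups overlapped, and the change was -0.76 (95% interval -1.85 to 0.34; limma adjusted p = 0.944). Without control replicate 3 it was -0.32, and without control replicate 1 it was -1.16. Gpihbp1, which holds the lipase on the capillary wall and was also picked after its values were seen, was at 0.05 (95% interval -0.24 to 0.34) and turned to -0.058 without control replicate 1. Vldlr, picked in the same way, had the highest change of the list, 0.53 (95% interval -0.44 to 1.51). Its signals were 2230, 2183 and 727 in the controls and 1909, 2184 and 2644 in Vhl-deleted replicates 1, 2 and 3, and the groups overlapped. Leaving out single arrays moved the median of this list between -0.18 (without Vhl-deleted replicate 3) and 0.0048 (without control replicate 2).

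**Figure D4:**
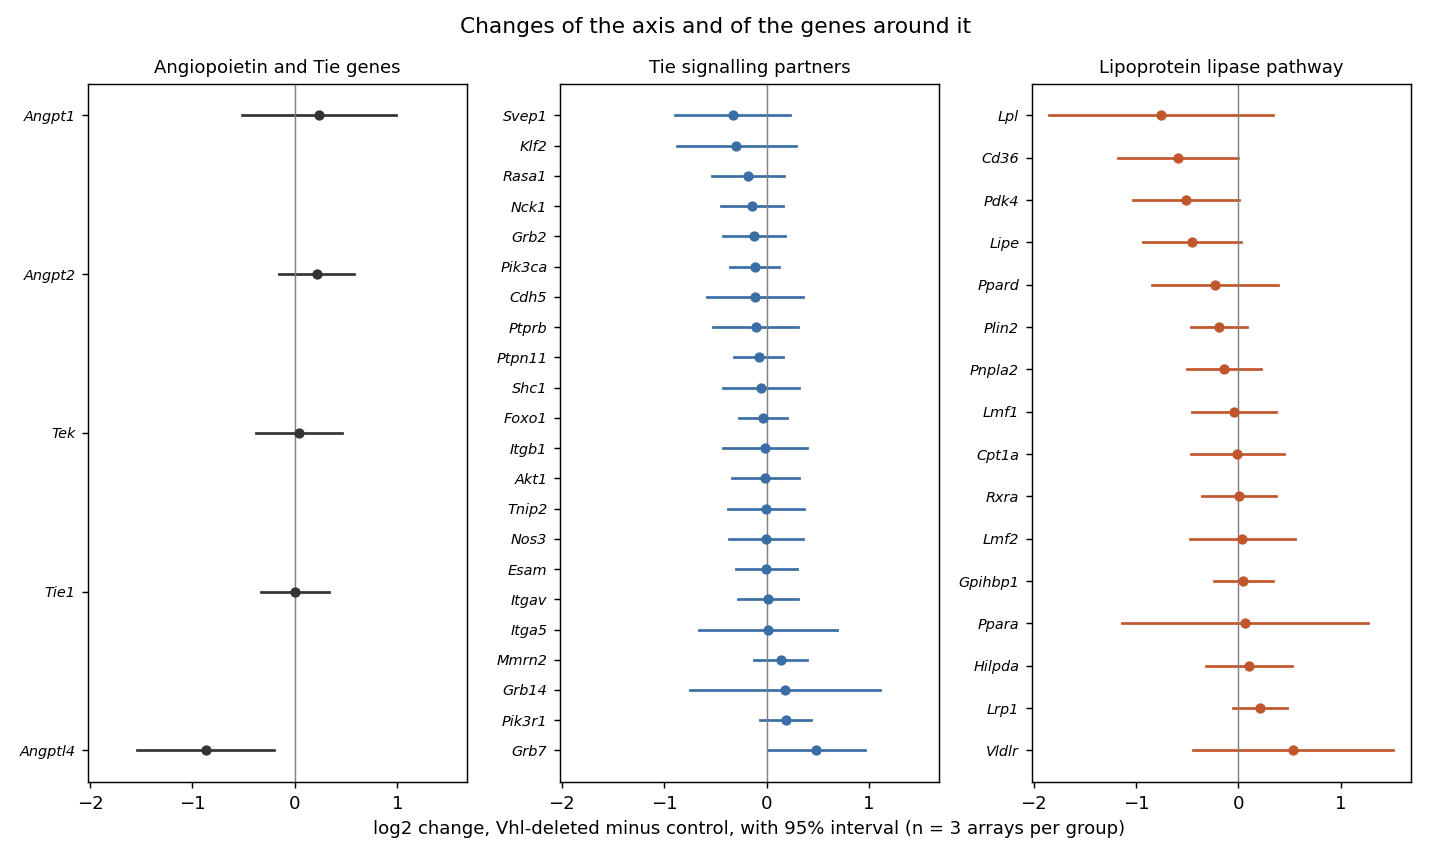
Log2 change (Vhl-deleted minus control) with its 95% interval for the 5 genes of the axis, the 22 tested partners of the Tie receptors and the 16 tested genes of the lipoprotein lipase pathway, n = 3 arrays per group. The interval of Angptl4 lies below 0, those of the receptors are centred near 0, and none of the genes shown passed after adjustment over all genes.

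Among other angiopoietin-like genes, 2 of 6 were tested. Angptl7 had signals of 314, 301 and 207 in the controls and of 454, 279 and 471 in Vhl-deleted replicates 1, 2 and 3, a change of 0.49 (95% interval -0.08 to 1.07; limma adjusted p = 0.944) that was 0.32 without control replicate 3. Angptl6 was at -0.08 (limma adjusted p = 0.963), turning to 0.022 and 0.074 when replicate 2 of the controls or of the Vhl-deleted arrays was left out. Like Angptl4, both had adjusted p values far above the threshold.

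Angptl4 and Angpt2 are both known as genes that hypoxia can raise, so they were set beside HIF targets in the same arrays. Of 22 HIF targets, a list chosen with results of these arrays known, 20 were tested. Only 1 passed, Egln3 (4.63, SE 0.15, limma adjusted p = 9.74e-05). Of the 20, 18 had a positive change, beside 50.9% of all genes tested, and the median was 0.56. Angptl4 was at -0.87, while the changes of that list ran from -0.71 (Ddit4, picked after its values were seen) to 4.63. Without control replicate 3 Angptl4 was at -0.61 and Ddit4 at -0.68, and without Vhl-deleted replicate 3 they were at -0.74 and -1.22, so the place of Angptl4 below the list rests on these arrays. Angpt2, at 0.21, was below the median of the list. The VEGF family is the other ligand and receptor system between podocytes and endothelium. Of its 10 genes tested, 9 had a positive change and 0 passed (limma). An unadjusted limma p under 0.05 was found for 2 of the 10, Vegfc and Vegfa, beside 4.92% of all genes tested. Vegfc was at 0.59 (limma adjusted p = 0.749), Vegfa at 0.42 (limma adjusted p = 0.851) and the receptor gene Kdr at 0.28 (limma adjusted p = 0.944). The median of this family was 0.21, and 0.10 without control replicate 1. The VEGF and HIF lists share Vegfa, the VEGF and endothelial lists share Kdr and Flt1, and the endothelial list shares Ptprb, Nos3 and Esam with the Tie partners.

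The tissue markers gave the content of the arrays in which these values were read. Endothelial markers, with 11 of 21 changes positive, had a median of 0.02 that changed sign with single arrays left out (-0.03 to 0.08). Cd34 was at 0.29 and Cldn5, a junction protein, at -0.48, which was -0.26 without control replicate 3. The mesangial and smooth muscle markers had 9 of 10 positive changes and a median of 0.18 (0.09 without control replicate 1), with Myl9 at 0.40, Tagln at 0.53 and Pdgfrb at 0.22 (0.14 without control replicate 1). Podocyte markers had 13 of 14 negative changes and a median of -0.31, -0.14 without control replicate 3 and -0.20 without Vhl-deleted replicate 3. Lmx1b was at -0.53, Plce1 at -0.57 and Foxc2 at -0.58, and without control replicate 3 Plce1 was at -0.36 and Foxc2 at -0.32. Tubule markers had 16 of 16 positive changes and a median of 0.50, which was -0.04 without that array, 0.87 without control replicate 2 and 0.29 without Vhl-deleted replicate 3. Kap was at 0.73, Fbp1 at 0.87 and Cubn at 0.83, and without control replicate 3 they were at 0.29, 0.066 and 0.011. Without control replicate 2 Fbp1 and Cubn were at 1.33 and 1.32, and Kap was at 0.49 without Vhl-deleted replicate 3. Parietal epithelial markers had a median of 0.35 over 7 genes, -0.07 without control replicate 3 and 0.18 without Vhl-deleted replicate 3. Vcam1 was at 0.57, Cd44 at 0.35 and Pax8 at 0.35, and without control replicate 3 Vcam1 was at 0.36 and Pax8 at -0.06. Immune markers had 10 of 11 positive changes and a median of 0.56, 0.32 without control replicate 3 and 0.84 without control replicate 1, with H2-Eb1 at 0.99, Cd74 at 1.02 and H2-Aa at 0.94. Of 4 erythroid genes 1 was tested, Alas2, at -0.40, which was -0.69 without control replicate 3 and -0.19 without control replicate 1. The summed tubule signal ran from 41739.5 to 135993 in the controls and from 105631 to 175553 in Vhl-deleted arrays, and the summed podocyte signal from 107622 to 141375 and from 94352 to 112167. Of 80 marker genes tested, 0 passed (limma; 14, or 17.5%, had an unadjusted p under 0.05, beside 4.92% of all genes tested), and their part in the values of Angpt1 and Angptl4 was not tested beyond the covariate and the left-out array given with them.

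For each of the 5 genes, the genes whose log2 levels ran most alike over the 6 arrays were picked by Pearson correlation, as a description without a test. Nearest to Angpt1 were Asb9 (r = 0.999), Lrrc66 (0.998) and Atp5o (0.997), and 1100 genes, or 9.86% of those tested, had an r above 0.9 with it. That share was larger than for the other members: 65 genes (0.583%) for Angpt2, 221 (1.98%) for Tek, 91 (0.816%) for Tie1 and 273 (2.45%) for Angptl4. Angpt2 was most like Ulk1 (0.991), Mfsd5 (0.988) and Cd248 (0.984). Tek was most like Stard13 (0.994), Hnrnpa2b1 (0.990) and Arrdc1 (0.988), and Tie1 like Dnm2 (0.997), Slc30a9 (0.988) and Arfip2 (0.983). Angptl4 was most like Adnp2 (0.995), Bambi (0.990) and Tut4 (0.988), whose changes of -0.38, -0.36 and -0.35 were smaller than its own.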

How the data were processed

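The authors deposited linear intensities made with MAS5, per the submitters' processing notes, which give no version. In each array the 2% trimmed mean is 500, so the arrays had been scaled. No pair of arrays held identical values. Of 45101 probe sets, 64 are controls; 34945 had 1 symbol in the array's annotation, 932 several and 9160 none. Genes came from probe sets with 1 symbol in the upper 50% by mean of log2(signal + 28), 28 being the 25th percentile of all values, and the brightest probe set stood for each of 11159 genes. All 5 measured members passed this filter, each with 1 probe set.

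The groups, controls (labelled wildtype) and Vhl-deleted, were tested in R 4.3.3 by limma 3.58.1 (lmFit and eBayes, trend on, 7.08 total degrees of freedom), and every adjusted p is from limma. A second fit took all 45037 probe sets without a filter; 16 of them (0.0355%) passed, and none was a member. Lists are described by counts and medians, without a set test. The members and lists were chosen with earlier results of these data known. Named were the members, Vhl, Egln3, list genes past the threshold (otherwise the 3 with the smallest p), and the 3 genes most like each member; others are given as picked after their values were seen. The labels call the arrays biological replicates, and no batch is given in the labels. Alternatives changed the scaling, pseudocount, filter, probe set choice, variance model, array weights, replicate block, marker covariates and threshold, and left out each array in turn.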

Additional observations from a re-analysis of the deposited data

How the results depend on the processing

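Of 99 alternative values of the 5 genes, 0 passed the threshold of 0.05. Angpt2 and Angptl4 kept their direction in all 20 alternatives each, between 0.13 and 0.34 and between -1.18 and -0.55. Alternatives in the variance model, the filter, the probe set choice or the replicate block left both changes as they were. Those settings could not turn a direction, so the 20 are not 20 separate checks of it. Angpt1 turned to -0.065 with array weights and -0.069 with the tubule covariate. Tek turned to -0.013 with quantile normalization and -0.024 with median scaling. Tie1 was at 0.019 with quantile normalization, 0.012 with array weights and 0.054 with the tubule covariate. With each array left out in turn, Angpt1 ran from -0.11 to 0.41, Angpt2 from 0.13 to 0.34, Tek from -0.092 to 0.19, Tie1 from -0.083 to 0.11 and Angptl4 from -1.18 to -0.61. Angpt1 could not be fitted among the brightest 30% of probe sets. Of 612 alternative values of 31 other named genes, 606 kept direction and side of the threshold; Pax8 turned to -0.042 with array weights and -0.016 with the tubule covariate and ran from -0.059 to 0.61 with single arrays left out, Angptl6 ran from -0.18 to 0.074, and Plce1 passed with the endothelial covariate. The cause of these shifts was not tested.

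The number of genes that passed, 9, was 33 with array weights, 35 with the tubule covariate, 47 with the endothelial covariate, 18 at a threshold of 0.10, and 15 with the filter and probe set chosen by mean signal, an alternative added after seeing the data. It ran from 1 (without Vhl-deleted replicate 1) to 12 (without control replicate 3) with single arrays left out. The number of probe sets that passed, 16, was 7 among the brightest 30%, 8 without the intensity trend, 30 with the tubule covariate and 43 with the endothelial covariate, and ran from 6 to 14 with single arrays left out. With the replicate block, 1 gene and 3 probe sets passed. Deviations of same-numbered arrays from their group means correlated at -0.02, -0.41 and -0.51, and no sample correlated best with its own number. These values show no pairing by number but cannot exclude one, since deviations within a group of 3 arrays are tied to each other. The block changed no call of the 5 genes. Angptl2 was not run.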
